A study of Mus musculus with 6 samples.

Results

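The potassium channel genes described here are the genes whose symbol on the array starts with Kcn, which names the pore subunits of potassium channels, their accessory subunits and a few noncoding RNAs transcribed beside them. They were chosen by symbol alone, and each gene is represented by its brightest probe set, taken by the mean over the 6 arrays. This gave 84 genes from 167 probe sets, out of 18193 genes with a probe set that carries a single symbol. Of the 84 genes, 69 had at least 1 array above a signal of 32 and were tested, and 15 were at or below 32 on all 6 arrays.

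Potassium channels let potassium ions leave or enter the cell and thereby set the membrane potential. Voltage-gated channels open when the membrane depolarizes, inward rectifiers and tandem-pore leak channels hold the resting potential, and calcium- or sodium-activated channels follow the ion levels inside the cell. They are best known from nerve, heart and muscle, and osteoblasts are also known to carry several kinds of potassium current.

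The arrays compared 3 pRb-expressing with 3 pRb-deficient cultures of MC3T3 osteoblasts, the question being which genes depend on the retinoblastoma protein pRb, a repressor of cell cycle genes. Here MC3T3 stands for calvarial osteoblasts of embryonic day 18.5 mice that were immortalized by the 3T3 protocol of serial passage. The mice were bred from carriers of the floxed allele flox19-RB1 in a C57BL/6 background. In the knockouts it was excised by 2.3-Col1a1-Cre or 3.6-Col1a1-Cre, transgenes in which a collagen I promoter drives Cre in osteoblasts. The control littermates gave the pRb-expressing cultures. The labels call the pRb-expressing cultures wild type and the pRb-deficient ones Rb knockout, and the paper writes them as Rb+/+ and Rb−/−. Which of the 2 Cre lines gave the cells on these arrays was not stated in the sources used here. The labels call the 3 cultures of a group biological replicates but do not say whether they came from separate animals or lines, so p-values measure the spread between these cultures, which may be technical, and the line of origin and pRb status cannot be told apart. RNA was taken from whole cultures, in which fewer cells of a type and less RNA per cell cannot be told apart.

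Rb1, the gene of pRb, gave a mean of 1116 on the pRb-expressing arrays and 131 on the pRb-deficient arrays (log2 fold change −3.09, always given as pRb-deficient over pRb-expressing). Xist, which is transcribed from the inactive X chromosome of female cells, averaged 168 on the pRb-expressing arrays and 10965 on the pRb-deficient arrays, and the Y-linked genes Eif2s3y, Kdm5d and Uty were at or below 32 on the 3 pRb-deficient arrays only, so the sex of the cells and pRb status cannot be told apart either. The osteoblast markers measured, 9 in number, all passed the test, with 8 lower and 1 higher in pRb-deficient cultures, and their summed signal ran from 67598 to 76896 in pRb-expressing and from 35916 to 48321 in pRb-deficient cultures. Of all genes tested 41.9% passed, and of those whose mean signal reached 200, 59.0% did. Col1a1 stayed bright in both, whereas Ibsp, the gene of bone sialoprotein, averaged 2311 on the pRb-expressing arrays but 3.50 on the others.

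Before the values, the DNA just upstream of 5 genes that moved is shown, since regulatory sites are commonly sought there: Kcnq5, Kcnk2 and Kcnj15, which were higher in pRb-deficient cultures, and Kcna7 and Kcnmb4, which were lower. Each run holds the 250 bases before the most upstream start that RefSeq annotates, in the build GRCm38.p6, read 5′ to 3′ along the gene, and capitals mark CG dinucleotides. The Kcnq5 run lies at chr1:21962651-21962900 on the minus strand, Kcnk2 at chr1:189402274-189402523 on the minus strand, Kcnj15 at chr16:95257308-95257557 on the plus strand, Kcna7 at chr7:45405710-45405959 on the plus strand and Kcnmb4 at chr10:116473524-116473773 on the minus strand.
Kcnq5: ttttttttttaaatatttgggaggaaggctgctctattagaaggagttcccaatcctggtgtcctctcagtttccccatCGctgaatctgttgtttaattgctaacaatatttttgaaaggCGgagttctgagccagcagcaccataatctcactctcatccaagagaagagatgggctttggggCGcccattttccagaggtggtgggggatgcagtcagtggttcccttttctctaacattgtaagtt
Kcnk2: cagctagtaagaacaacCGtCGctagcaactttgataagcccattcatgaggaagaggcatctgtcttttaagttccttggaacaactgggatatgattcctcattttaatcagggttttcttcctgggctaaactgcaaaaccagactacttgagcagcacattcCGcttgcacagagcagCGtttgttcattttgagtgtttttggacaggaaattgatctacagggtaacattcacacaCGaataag
Kcnj15: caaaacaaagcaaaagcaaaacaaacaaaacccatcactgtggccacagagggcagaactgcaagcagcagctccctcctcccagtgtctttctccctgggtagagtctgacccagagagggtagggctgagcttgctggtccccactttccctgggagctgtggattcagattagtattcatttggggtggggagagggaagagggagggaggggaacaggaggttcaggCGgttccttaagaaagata
Kcna7: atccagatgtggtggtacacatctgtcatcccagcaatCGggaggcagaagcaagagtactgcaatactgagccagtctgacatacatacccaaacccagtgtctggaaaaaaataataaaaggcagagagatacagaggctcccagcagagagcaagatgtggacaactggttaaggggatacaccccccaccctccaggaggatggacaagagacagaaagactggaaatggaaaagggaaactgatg
Kcnmb4: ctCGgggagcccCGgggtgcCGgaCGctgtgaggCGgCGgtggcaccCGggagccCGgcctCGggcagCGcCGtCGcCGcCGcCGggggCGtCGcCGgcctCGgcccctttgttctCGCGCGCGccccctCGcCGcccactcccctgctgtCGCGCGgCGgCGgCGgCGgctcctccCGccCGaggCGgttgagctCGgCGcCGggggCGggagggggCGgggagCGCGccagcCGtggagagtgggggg

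The 5 stretches differed widely in composition. The Kcnmb4 stretch held 43 CG dinucleotides and was 83.6% G or C, whereas those of Kcnj15 and Kcna7 held 1 CG each, Kcnq5 3 and Kcnk2 5, beside a median of 6 over the same window of 27025 genes. Windows were read for 10 of the 14 Kcn genes that passed the test, the other genes being Kcnq1, Kcnd1, Kcnu1 and Kcng2. The 4 higher genes with a window had 1 to 18 CG dinucleotides and the 6 lower genes 1 to 43, so the ranges overlapped. These counts depend on the start chosen: other annotated starts of Kcnk2 had windows with 2, 27 and 28 CG dinucleotides, and another start of Kcnq5 had 14. As pRb acts largely through E2F transcription factors, the windows were searched on both strands for 4 spellings of the E2F site (TTTCCCGC, TTTCGCGC, TTTGCCGC and TTTGGCGC, none of which contains another). None of the 10 windows held these letters, beside 520 of the 27025 windows, or 1.92%. Among the Kcn genes that did not pass or were not tested, the windows of Kcna3, Kcna6 and Kcnh5 held such a match.

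Of the 69 Kcn genes tested, 14 passed the test, a limma adjusted p under 0.05, and of these 5 rose and 9 fell with loss of pRb. They make up 20.3%, against 41.9% of all 16308 genes tested. In single directions, 7.25% of the Kcn genes were higher and 13.0% lower, against 18.5% and 23.4% of all genes. The signals of the groups did not overlap for 19 Kcn genes, or 27.5%, against 53.8% of all genes. The median log2 fold change over the Kcn genes tested was −0.25, beside −0.09 over all genes tested.

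Kcn probe sets were dim, with a median of the mean signals of 77.0 against 352 over all genes tested. Of the 11 Kcn genes whose mean signal reached 200, 6 passed the test, or 54.5%, beside 59.0% of all genes that bright. Of the 58 dimmer ones 8 passed, or 13.8%, beside 16.9% of all dimmer genes. Within each range of brightness the share of Kcn genes was thus near that of all genes. The change was at least 2-fold in 11 of the 14 genes that passed.

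**Figure D1:**
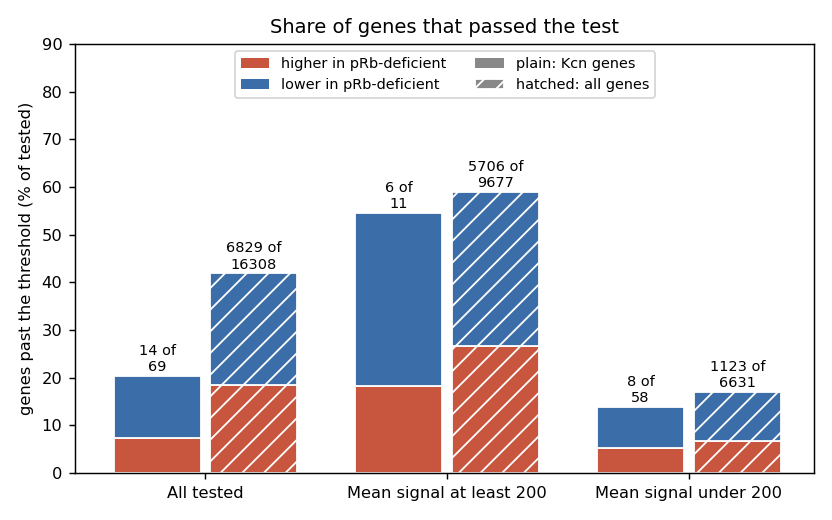
Percent of tested genes past the threshold (vertical axis) for Kcn genes (plain bars) and all genes (hatched bars), over all tested genes and split at a mean signal of 200, with the part that was higher in pRb-deficient cultures in red and the part that was lower in blue. The Kcn bar stands at 20.3% against 41.9% over all tested genes, but at 54.5% against 59.0% for bright and 13.8% against 16.9% for dim genes.

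**Figure D2:**
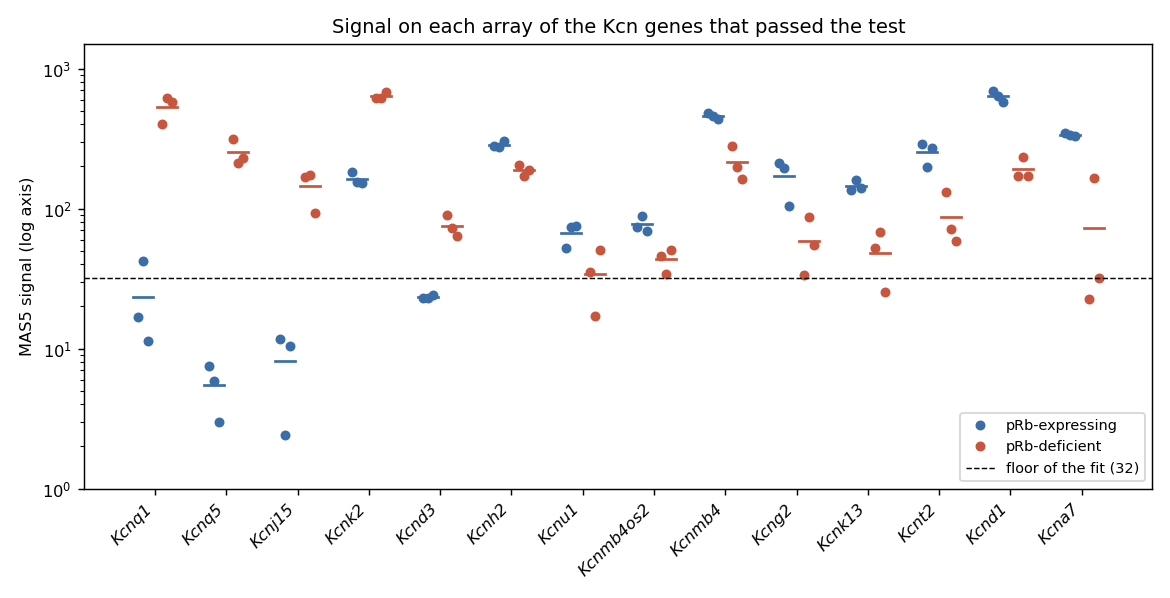
MAS5 signal (log axis) on each of the 3 pRb-expressing (blue) and 3 pRb-deficient (red) arrays for the 14 Kcn genes that passed the test, ordered by log2 fold change, with short lines for group means and a dashed line at 32, the value to which lower signals were raised for the fit. Kcnq1, Kcnq5, Kcnj15, Kcnk2 and Kcnd3 are higher in pRb-deficient cultures, the other 9 lower, and no gene has overlapping groups.

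The largest rise was in the KCNQ (Kv7) family, slowly opening voltage-gated channels. Kcnq1 encodes the pore of the slow delayed rectifier of the heart and of potassium channels in epithelia. Its signal was 16.9, 42.1 and 11.3 on the pRb-expressing and 405.2, 616.7 and 574.0 on the pRb-deficient arrays. All pRb-deficient arrays were far above all pRb-expressing ones, of which only 1 was above 32. Kcnq1 was at least 14.9-fold higher in pRb-deficient cultures on geometric means, a log2 fold change of 3.90 (standard error, SE, 0.23, with a limma adjusted p of 4.20e-05). Kcnq5, which encodes a pore subunit of the M-type current of neurons and smooth muscle, had signals of 7.5, 5.9 and 3.0 on the pRb-expressing and 315.3, 211.8 and 229.4 on the pRb-deficient arrays. No pRb-expressing array reached 32, and every pRb-deficient array was well above it. The rise of Kcnq5 was at least 7.76-fold, or 2.96 on the log2 scale (SE 0.21, adjusted p = 8.40e-05). Kcnq5 had 2 other probe sets, of which the one with mean signals of 12.1 and 63.2 was also higher (log2 fold change 0.97, adjusted p = 0.00190), and the one with means of 47.3 and 86.0 did not pass (0.79, adjusted p = 0.118). Kcnq3, the remaining member measured and another M-type subunit, had means of 60.0 and 76.6 and did not pass (adjusted p = 0.259).

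The subunits and regulators known to act with KCNQ channels were mixed. The MinK-related subunits, small membrane proteins that join the Kcnq1 pore, were dim: Kcne1, Kcne2 and Kcne3 were at or below 32 on all 6 arrays, and Kcne4 and Kcne1l did not pass. Nedd4l, a ubiquitin ligase that removes KCNQ and sodium channels from the membrane, rose by 2.27 on the log2 scale, from a mean of 295 to 1419. Sgk1, a kinase that restrains Nedd4l, rose by 2.53, from a mean of 1297 to 7675. Kcnq1ot1, a long noncoding RNA transcribed antisense to Kcnq1 that silences genes of the imprinted Kcnq1 domain, had signals with means of 357 ± 29.0 (SD, n = 3 cultures) and 321 ± 84.1 (SD, n = 3) and did not pass (log2 fold change −0.18, 95% interval −0.64 to 0.28), although it was lower with array quality weights (−0.44, adjusted p = 0.0304). None of the other probe sets of Kcnq1ot1 passed, with log2 fold changes from −0.66 to 0.80. The highest belonged to a probe set with means of 16.9 and 58.6 without overlap (adjusted p = 0.0645). With all its probe sets averaged, the log2 fold change of Kcnq1ot1 was −0.03. Kcnq1 itself has a single probe set.

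Among the tandem-pore (K2P) leak channels, Kcnk2 rose and Kcnk13 fell, and the other 7 genes tested did not pass. Kcnk2 encodes TREK-1, a leak channel opened by membrane stretch and by arachidonic acid. Its signal was 182.1, 153.9 and 153.2 on the pRb-expressing and 618.8, 613.3 and 679.1 on the pRb-deficient arrays. Both groups were well above 32 and tight, and their values lay far apart. Kcnk2 was 3.92-fold higher in pRb-deficient cultures (log2 fold change 1.97, SE 0.12, limma adjusted p = 5.17e-05), and leaving out any 1 array kept the call. Kcnk13, the gene of THIK-1, a leak channel inhibited by halothane, had signals of 134.8, 160.5 and 139.6 on the pRb-expressing and 52.3, 67.9 and 25.2 on the pRb-deficient arrays. The groups did not overlap, and 1 pRb-deficient array was below 32. Kcnk13 was at least 2.98-fold lower in pRb-deficient cultures (log2 fold change −1.58, SE 0.30, adjusted p = 0.00587).

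The inward rectifiers (Kir), which pass potassium more easily into the cell than out of it, gave 1 gene that passed of 14 tested, Kcnj15, which encodes Kir4.2. Its signal was 11.7, 2.4 and 10.4 on the pRb-expressing and 168.1, 175.3 and 93.5 on the pRb-deficient arrays, so that no pRb-expressing array reached 32. Kcnj15 was at least 4.38-fold higher (log2 fold change 2.13, adjusted p = 0.000986), but its 2 other probe sets, with log2 fold changes of 0.69 and −0.44, did not pass. The brightest Kcn probe set of all was that of Kcnj11, the gene of Kir6.2, which forms the pore of ATP-sensitive potassium channels. Its signal was 5310, 6534 and 6179 on the pRb-expressing and 4077, 4948 and 5865 on the pRb-deficient arrays, with overlap between the groups. Kcnj11 did not pass (log2 fold change −0.29, adjusted p = 0.181), and the 95% interval of its log2 fold change ran from −0.63 to 0.06. The other probe set of Kcnj11 was dim, with means of 41.0 and 42.9 (log2 fold change −0.15), and did not pass either. Of the sulfonylurea receptors that complete these channels, Abcc8 had means of 89.8 and 85.1 and Abcc9 of 29.2 and 11.0, and neither passed.

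The Shaker-related (Kv1 to Kv4) pore subunits moved in both directions. Kcnd1 encodes Kv4.1, which carries fast inactivating A-type current. Its signal was 690.3, 632.5 and 578.4 on the pRb-expressing and 170.1, 232.8 and 171.4 on the pRb-deficient arrays, with a wide gap between the groups. Kcnd1 was 3.34-fold lower in pRb-deficient cultures (log2 fold change −1.74, SE 0.16, limma adjusted p = 0.000238). Of its 2 other probe sets, 1 was lower by about as much (−1.73, adjusted p = 0.000312) and 1 did not pass (−0.27, adjusted p = 0.328). Kcnd1 is X-linked, and the cultures differed in Xist. The part of the X chromosome number in its level was not tested, and the median log2 fold change of the genes on that chromosome was 0.16. Kcnd3, the gene of Kv4.3 of the same subfamily, went the other way, from 22.9, 23.1 and 24.2 on the pRb-expressing to 89.7, 72.8 and 63.4 on the pRb-deficient arrays. It was at least 2.33-fold higher (log2 fold change 1.22, adjusted p = 0.00147), but its next brightest probe set had a log2 fold change of −0.63 and did not pass (adjusted p = 0.154), so the direction turned with the probe set.

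Kcna7 encodes Kv1.7, a voltage-gated pore subunit of muscle and heart. Its signal was 347.4, 337.5 and 329.4 on the pRb-expressing and 22.6, 165.0 and 32.2 on the pRb-deficient arrays. The pRb-expressing arrays were nearly equal, while pRb-deficient replicate 2 stood several-fold above its group. On geometric means, with 1 pRb-deficient array raised to 32, Kcna7 was at least 6.10-fold lower (log2 fold change −2.61, SE 0.62, adjusted p = 0.0158). This was the largest fall and the least precise, and the ratio of the unfloored mean signals was only 4.61. With array quality weights its log2 fold change was −1.29, or 2.45-fold, and it did not pass (adjusted p = 0.0812), nor did it with dim probe sets kept in (adjusted p = 0.0626). Leaving out any array of this gene other than pRb-deficient replicate 2 raised the adjusted p above the threshold, to between 0.0704 and 0.0937. Kcng2, whose product joins other voltage-gated subunits as a silent modifier, was the only modifier gene of 8 tested to pass. Its signals were 213.1, 193.6 and 105.1 on the pRb-expressing and 33.8, 87.2 and 55.4 on the pRb-deficient arrays (log2 fold change −1.58, adjusted p = 0.0249). The call of Kcng2 was lost without pRb-expressing replicate 1 or 2 or pRb-deficient replicate 1 or 3, with adjusted p of 0.0841 to 0.126.

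In the EAG, ERG and ELK group (Kv10 to Kv12), Kcnh2 fell and the other 4 genes tested did not pass. Kcnh2 encodes the ERG channel of the rapid delayed rectifier of the heart. Its signal was 278.3, 273.5 and 303.6 on the pRb-expressing and 206.6, 172.3 and 187.5 on the pRb-deficient arrays. The groups did not overlap, but the step was small, 1.51-fold lower (log2 fold change −0.60, SE 0.14, adjusted p = 0.0147), and without pRb-expressing replicate 3 the adjusted p was 0.0519. Kcnh3, an ELK channel of the brain and the brightest of the group, had signals of 533.6, 553.7 and 572.1 against 582.4, 704.8 and 740.3. Its groups did not overlap, but it did not pass (log2 fold change 0.28, adjusted p = 0.0953). It passed without pRb-deficient replicate 1 (0.39, adjusted p = 0.0117) and with array quality weights (0.35, adjusted p = 0.00543). None of its other probe sets passed. The next brightest had means of 592 and 614 (log2 fold change 0.02), another fell from 355 to 287 without overlap (−0.30), and the dimmest had 0.31. With all its probe sets averaged, the log2 fold change of Kcnh3 was 0.08 (adjusted p = 0.738).

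In the group of calcium- and sodium-activated channels, Kcnt2 and Kcnu1 passed, both lower in pRb-deficient cultures. The group was set by symbol and so also holds Kcnu1, a pH-sensitive relative. Kcnt2 encodes Slick, a sodium-activated channel. Its signal was 291.2, 198.9 and 272.2 on the pRb-expressing and 130.4, 71.3 and 58.5 on the pRb-deficient arrays, with no overlap. Kcnt2 was 3.07-fold lower (log2 fold change −1.62, SE 0.33, adjusted p = 0.00853), and without pRb-expressing replicate 1 or 3 or pRb-deficient replicate 2 the adjusted p rose to between 0.0519 and 0.0572. Kcnu1, the pH-sensitive channel of sperm, was dim, at 52.3, 74.1 and 74.8 against 35.2, 17.1 and 50.9, and its fall of 0.78 on the log2 scale (adjusted p = 0.0431) was not past the threshold without pRb-expressing replicate 2 or 3 or pRb-deficient replicate 1 or 2, with adjusted p of 0.133 to 0.15. The brightest gene of the group was Kcnn4, the intermediate-conductance calcium-activated channel. Its signals of 607.3, 632.9 and 711.7 against 574.9, 662.0 and 902.6 overlapped, and its log2 fold change was 0.11 with a 95% interval of −0.30 to 0.51.

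For the BK channel, opened by calcium and voltage together, an accessory subunit passed the test and the pore gene did not. Kcnmb4 encodes the beta-4 subunit, which slows the gating of BK channels in brain. Its signal was 481.6, 456.8 and 436.4 on the pRb-expressing and 279.4, 198.6 and 163.1 on the pRb-deficient arrays, again without overlap. Kcnmb4 was 2.20-fold lower (log2 fold change −1.14, SE 0.20, limma adjusted p = 0.00471), and leaving out any 1 array kept the call. It was the only accessory subunit of 12 tested to pass. Kcnab2, a beta subunit of voltage-gated channels, had means of 82.9 and 159 with overlap (log2 fold change 0.96, adjusted p = 0.0699). Kcnab2 passed as higher with no floor, with a pseudocount of 32, with median centring and with array quality weights, among others. Its other probe set did not pass (0.56, adjusted p = 0.283). Kcnma1, the gene of the BK pore, had mean signals of 113 and 165 and did not pass (log2 fold change 0.55, 95% interval −0.22 to 1.32), an interval that holds rises of over 2-fold. Another probe set of Kcnma1 had means of 4.0 and 72.4 with no overlap between the groups, and did not pass either (log2 fold change 1.02, adjusted p = 0.113). Kcnmb4os2, a noncoding RNA on the opposite strand whose annotated start lies 360 bases from that of Kcnmb4, was also lower, at 73.6, 88.9 and 69.5 against 46.1, 34.0 and 50.9 (log2 fold change −0.84, adjusted p = 0.0198). Its call was lost without pRb-expressing replicate 1 or 2 or pRb-deficient replicate 2, with adjusted p of 0.0550 to 0.0656.

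**Figure D3:**
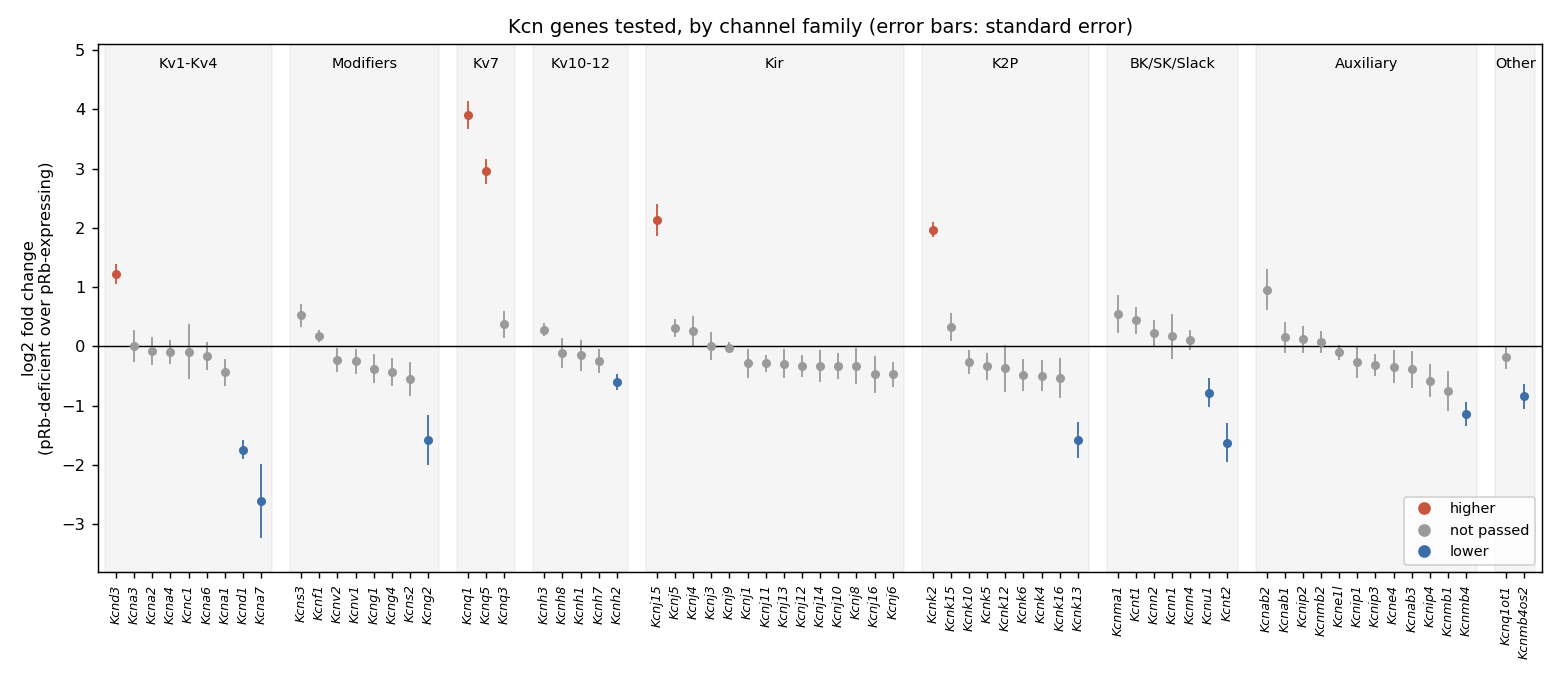
Log2 fold change of pRb-deficient over pRb-expressing cultures (vertical axis, error bars are standard errors) for the 69 Kcn genes tested, grouped by channel family, with genes that passed the test as higher in red, as lower in blue and the rest in grey. Kcnq1 at 3.90 and Kcnq5 at 2.96 stand above all others, Kcna7 at −2.61 lies lowest, and most of the 55 genes that did not pass lie near 0.

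By family, the test was passed by 3 of 9 Shaker-related, 1 of 8 modifier, 2 of 3 KCNQ and 1 of 5 EAG, ERG and ELK genes. It was also passed by 1 of 14 inward rectifier, 2 of 9 tandem-pore and 2 of 7 calcium- and sodium-activated pore subunit genes, Kcnu1 counted among the last. Of the rest, 1 of 12 accessory subunit genes and 1 of the 2 noncoding RNAs tested passed. These family counts are small and are read beside 41.9% of all genes tested, and 16.9% of those with a mean signal under 200. Of the 55 genes that did not pass, 35 were above 32 on all 6 arrays, and 27 of these had a 95% interval that stayed within a 2-fold change in either direction, while for the other 8 a change of that size was within the interval. The other 20 had at least 1 array at or below 32, where the floor shortens the log2 fold change, so no bound is given for them. Among these was Kcnf1, a silent modifier subunit, which went from 6.7, 18.6 and 3.5 to 37.8, 35.3 and 35.8 and passed as higher with no floor, with a pseudocount of 32 or with dim probe sets kept in. The genes at or below 32 on all 6 arrays were Kcna5, Kcnc2, Kcnc4, Kcnd2, Kcne1, Kcne2, Kcne3, Kcnh5, Kcnj2, Kcnk1, Kcnk3, Kcnk7, Kcnmb4os1, Kcnn3 and Kcns1, for which no change was detectable on this array.

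Of the 14 genes that passed, 9 had a single probe set and 5 had others, 10 in all. Of the 8 other probe sets that could be tested, 2 passed in the direction of the brightest one, 1 of Kcnq5 and 1 of Kcnd1, and 6 did not pass. None passed in the opposite direction. Among the genes whose brightest probe set did not pass, 1 of 39 other probe sets tested did so, that of Kcna1 with mean signals of 103 and 40.4.

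**Figure D4:**
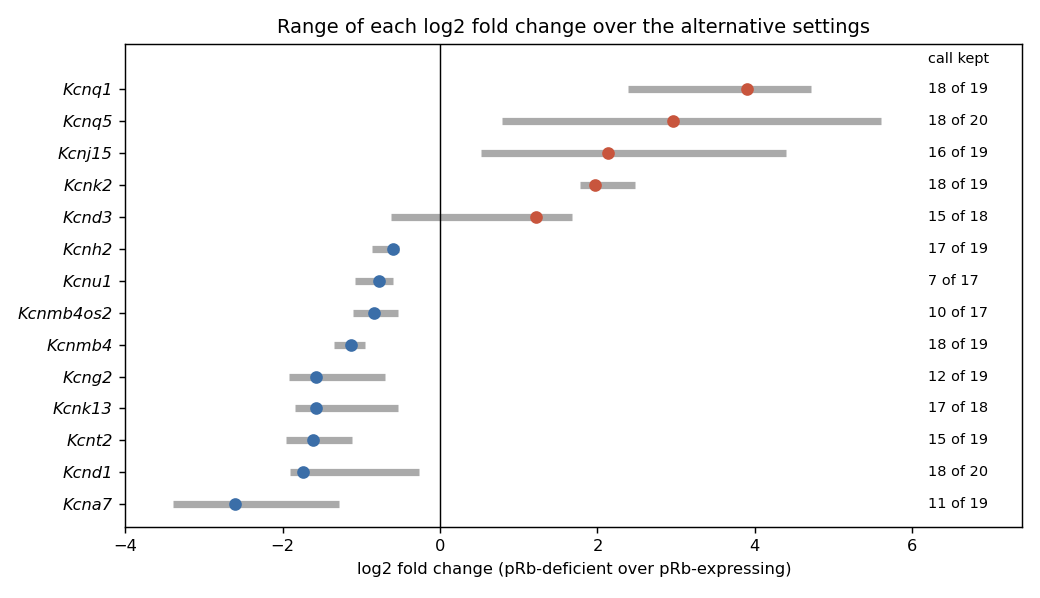
Lowest to highest log2 fold change (grey bars, horizontal axis) of the 14 Kcn genes over the alternative settings, with the reported value as a dot and, at the right, the number of alternatives under which the gene still passed in the same direction. Kcnq1, Kcnk2 and Kcnmb4 kept their call under 18 of 19 alternatives, Kcnu1 under 7 of 17, and the Kcnd3 bar crosses 0.

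The 14 genes lay on 10 chromosomes. Kcnq5, Kcnk2 and Kcnt2 are on chromosome 1, where the median log2 fold change of all genes was −0.50, and Kcnq1 and Kcna7 are on chromosome 7, where it was −0.33. The rises of Kcnq1, Kcnq5, Kcnk2 and Kcnj15 thus ran against the median of their chromosomes, and with chromosome medians removed all 14 genes kept their calls. Neighbours were taken in the order of annotated starts, without regard to gene ends. Those of Kcnq1 were Trpm5 and Kcnq1ot1, with log2 fold changes of 0.15 and −0.18, and neither passed. As Kcnq1ot1 is antisense to Kcnq1, it does not stand for the gene beyond Kcnq1, which was not read. Both neighbours of Kcna7 were lower, with log2 fold changes of −0.92 for Ntf5 and −0.50 for Snrnp70, and both neighbours of Kcnk13 were higher, with 0.85 for Psmc1 and 0.42 for Tdp1. Of the 24 neighbours that are no Kcn genes, 16 passed the test, 9 in the direction of the Kcn gene and 7 in the other, a share of 66.7% beside 41.9% of all genes tested and 59.0% of those whose mean signal reached 200. Copy number was not measured on these arrays.

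**Figure D5:**
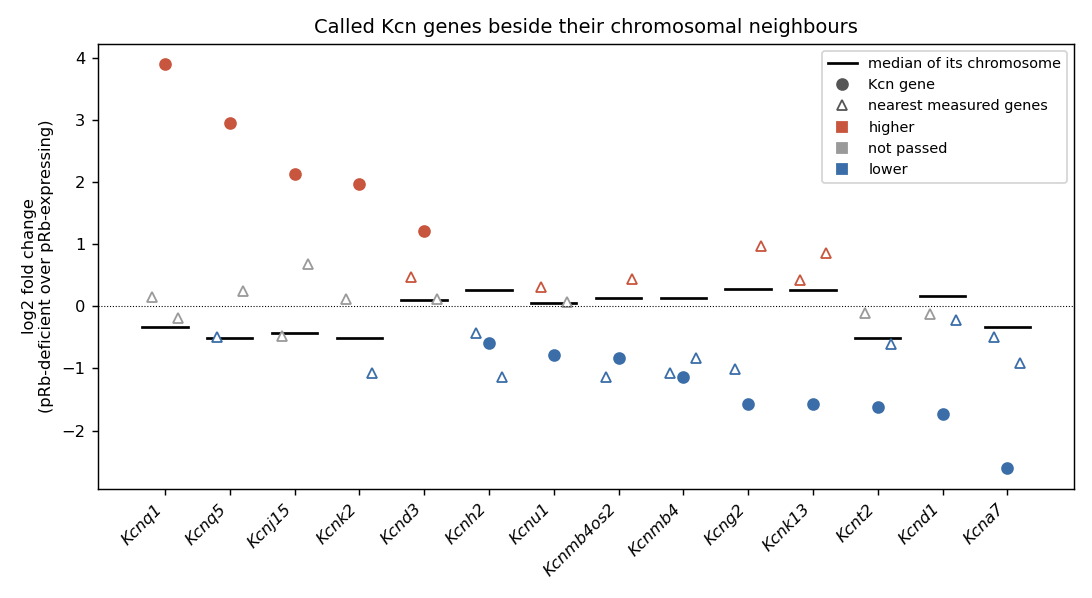
Log2 fold change (vertical axis) of the 14 Kcn genes that passed the test (dots) and of the median gene of the chromosome (black lines). Open triangles mark the tested genes before and after each Kcn gene in the order of annotated starts. Dots and triangles are coloured by the outcome of the test. The 5 higher Kcn genes stand above both neighbours and above the chromosome median, and the neighbours of the 9 lower genes lie on either side of 0.

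The other proteins that potassium channels and potassium balance rest on were counted in the same fit. Of 12 partner and regulatory proteins of potassium channels tested, 2 were higher, Sgk1 and Nedd4l, and 2 lower, Dlg1 and Dlg4, scaffolds that cluster channels at the membrane, with log2 fold changes of −1.17 and −1.08. Of 18 genes tested from a list of other potassium transport and cell volume genes, 7 were higher and 3 lower, and 5 and 3 of 15 without the Lrrc8 genes, which encode an anion channel. The 4 with the lowest adjusted p all rose on the log2 scale. Atp1b3 and Atp1b1, beta subunits of the sodium pump, rose by 1.07 and 1.64, and Lrrc8d and Lrrc8c, subunits of that volume-regulated anion channel, by 2.72 and 1.47. The 3 lower genes of this list were Fxyd1, Slc12a7 and Slc12a5. The fall of Fxyd1, from a mean of 1075 to 113 (log2 fold change −3.34), was the largest change of the list. The shares were 33.3% and 55.6%, read beside the same 41.9% of all genes. Of 34 sodium and calcium channel subunit genes tested, 3 were higher and 6 lower, a share of 26.5%. In that group Cacnb2 was higher by at least 12.6-fold and Cacna2d1 by 3.47-fold, both accessory calcium channel subunits. Calcium channel pore genes went both ways, with Cacna1c 2.33-fold higher and Cacna1a 5.68-fold lower. The sodium channel gene Scn3a was at least 5.98-fold lower.

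Markers of other cell types were counted in the same fit, and their part in the results for the Kcn genes was not tested. The counts are read beside 41.9% of all genes tested, 59.0% of those whose mean signal reached 200 and 16.9% of dimmer ones. Of 11 neuron markers tested, 3 were higher and 2 lower, with a summed signal of 960 to 1096 in pRb-expressing and 1549 to 1624 in pRb-deficient cultures. Gap43, Eno2 and Map2 were higher, Tubb3 and Syp were lower with log2 fold changes of −1.35 and −0.79, and Snap25 was at or below 32 on all 6 arrays. Without Gap43 and Eno2 the neuron sum ran from 871 to 1031 in pRb-expressing and from 749 to 817 in pRb-deficient cultures. Of 9 smooth muscle markers tested, 2 were higher and 5 lower, with summed signals of 30115 to 32461 and 28010 to 33180, and Myh11 was at or below 32 throughout. The near-equal smooth muscle sums hide large changes in both directions. Cnn1 rose from a mean of 12.1 to 2495 and Tagln from 5028 to 9936, while Mylk, 1 of the 5 lower genes, fell from 5051 to 560. Acta2, the brightest, had means of 19601 and 16564 and did not pass. Of 8 markers of skeletal and cardiac muscle, 1 was lower and none higher, with sums of 885 to 1096 and 678 to 851, and Myf5 and Tnnt1 were at or below 32 throughout. Chondrocyte markers gave 1 higher and 3 lower of 7, with sums of 2829 to 3644 and 1837 to 2767. Endothelial markers gave 1 higher of 6, with sums of 545 to 678 and 665 to 771, and Tie1 and Vwf were at or below 32 throughout. Hematopoietic markers gave 2 higher of 7, with sums of 1040 to 1099 and 1725 to 1981. The hematopoietic sum rose mostly through Cd14, with means of 268 and 984. Cd68, with means of 105 and 194, was the other higher gene, and the remaining 5 did not pass. Epithelial markers gave 1 higher and 2 lower of 9, with sums of 1310 to 1354 and 2180 to 2763. The epithelial sum rose through Msln, with means of 19.5 and 1551, and without it ran from 1290 to 1338 and from 750 to 1114.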

How the data were processed

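RNA of 6 cultures, 3 pRb-expressing and 3 pRb-deficient, was hybridized by the authors to 1 Affymetrix mouse array each. The deposited intensities are linear MAS5 signals, made with Affymetrix Expression Console 1.1 and MAS5 according to the notes of the submitters. Arrays correlated at 0.979 to 0.987 within groups and 0.928 to 0.932 between them, and 24.4% to 26.6% of probe sets per array were at or below 32. Of 45101 probe sets, 64 controls and those at or below 32 on all arrays were left out, and 38427 were tested.

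Signals below 32 were raised to 32 and all were taken to log2. In R 4.3.3, limma 3.58.1 fitted group as the only term (lmFit, then eBayes with trend). Its two-sided p-values were adjusted over all probe sets tested (Benjamini-Hochberg, threshold 0.05). Folds are on geometric means of the floored signals, and "at least" marks a fold whose lower group held an array at or below 32. MAS5 signals of different probe sets cannot be compared as levels. The number of arrays limits the precision, and no batch was given.

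The genes and lists were chosen with earlier results of these data known. The text names every Kcn gene past the threshold, with its values on each array, the brightest gene of each family, and up to 4 genes of each list with the lowest adjusted p. Further genes were chosen after their values were seen. The annotation of the array and RefSeq (GRCm38.p6) gave names, chromosomes and gene order, and all 84 Kcn genes matched. The study names no build. Chromosome medians used genes whose mean signal reached 200. Equal replicate numbers were not treated as pairs, as deviations from the group means correlated at 0.02, −0.03 and 0.06 between equal numbers. The steps were tested on simulated data.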

Additional observations from a re-analysis of the deposited data

How the results depend on the processing

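All 14 Kcn genes kept their direction under every alternative to the test, the floor, the scaling, the filter and the arrays used in which they were tested. The exception was Kcnd3, which turned to −0.63 on its next brightest probe set. Kcnu1, Kcnmb4os2 and Kcnd3 were not tested with a floor of 100. With the filter at a mean signal of at least 100, these genes, Kcnk13 and Kcnj15 were not tested. The 5 higher genes became 3 with a floor of 100, under which Kcnj15 did not pass and Kcnd3, below 100 on all arrays, was not tested, and 10 with array quality weights, and the 9 lower genes became 17 with these weights, which kept 8 of the 9 and lost Kcna7 (−1.29). The methods' rank test with Benjamini-Hochberg adjustment called 0 higher and 0 lower genes, since 3 arrays against 3 allow no p below 0.1 and gave no adjusted p below 0.217, while 17 Kcn genes had an unadjusted p under 0.05 from limma. Leaving out 1 array at a time gave 5 to 6 higher and 5 to 9 lower genes, the lowest count without pRb-expressing replicate 2 or 3. With the replicate number as a replicate block, 5 were higher and 8 lower, with Kcnmb4os2 lost. Among bright genes that did not pass, the log2 fold change of Kcnh3 became −0.069, that of Kcnj11 0.045 and that of Kcnq1ot1 0.148 with chromosome medians removed, and that of Kcnn4 0.44. Leaving out 1 array moved Kcnn4 between −0.073, without pRb-deficient replicate 3, and 0.252, without pRb-deficient replicate 1. The causes were not tested.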
